A study of Rattus norvegicus with 84 samples.

Results

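Expression in the hippocampal region labelled CA3 was compared with that in the region labelled CA1, in rats that had received vehicle and stayed in the home cage. The comparison took 14 arrays, picked by their labels: the 7 arrays labelled CA3 and the 7 labelled CA1 of that group, out of 84 arrays in the series. The comparison and the gene lists used below were chosen with earlier results of these data known. The rats were males of the F344xBN hybrid (Fischer 344 crossed with Brown Norway), 7 months old, from a study of the histone deacetylase inhibitor SAHA and of a water maze session called RPC (redundant place and cue). All rats in the groups used here had been injected intraperitoneally 90 min before death, so no value shows a rat without an injection. The vehicle rats received 100% DMSO, and the SAHA rats received SAHA in 100% DMSO. Home cage rats had no maze training and no maze session. The other 3 groups of 7 rats received SAHA at 50 mg/kg in the home cage, vehicle with the RPC session, or SAHA with the RPC session, and both RPC groups had been trained in the maze before. The 28 rats gave 1 array for each of 3 dissected regions, so the 7 arrays labelled CA1 and the 7 labelled CA3 came from the same 7 rats. The labels do not say which array of one region belongs with which of the other, and the main test treats the 14 arrays as independent.

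CA3 and CA1 are the fields of pyramidal neurons in the hippocampus, and the dentate gyrus (DG) holds the granule cells. Granule cells send mossy fibres to CA3 pyramidal neurons, which in turn project through the Schaffer collaterals to CA1. Each cell class has a known set of transcripts: Prox1, C1ql2 and Calb1 mark granule cells, Wfs1 and Ccn3 mark CA1 pyramidal neurons, and Nectin3 and Spock1 mark CA3 pyramidal neurons. A dissected field also holds interneurons, glia, vessels and, where it borders the ventricle, ependyma. The arrays measured bulk tissue, in which fewer cells of a type and less RNA per cell cannot be told apart.

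Promoters of 4 genes that the results turn on are shown because each had a large difference between the labelled regions. C1ql2 and Pdyn, which granule cells use at mossy fibre synapses, were lower in labelled CA3. Nts and Tmem212, coding for neurotensin and for a membrane protein known from ciliated cells, were higher. The sequences are from RefSeq (build GRCr8), run from 250 bases before to 50 bases after the annotated start, and are written 5′ to 3′ on the gene's strand. Capitals mark matches on either strand to 5 motifs picked for display: the TATA box TATAAA, the E-box letters CAGCTG, the proneural E-box CAGATG, the palindromic E-box CACGTG and the cyclic AMP response element TGACGTCA. C1ql2 lies at chr13:34023652-34023951 (plus strand), Pdyn at chr3:137366454-137366753 (minus strand), Nts at chr7:39460839-39461138 (minus strand) and Tmem212 at chr2:112741819-112742118 (minus strand).
C1ql2: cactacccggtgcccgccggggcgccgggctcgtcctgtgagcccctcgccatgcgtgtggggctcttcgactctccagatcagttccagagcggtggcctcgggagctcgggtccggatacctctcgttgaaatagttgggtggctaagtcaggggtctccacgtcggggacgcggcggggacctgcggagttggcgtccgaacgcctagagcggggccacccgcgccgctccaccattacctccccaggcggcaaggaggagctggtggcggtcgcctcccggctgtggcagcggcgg
Pdyn: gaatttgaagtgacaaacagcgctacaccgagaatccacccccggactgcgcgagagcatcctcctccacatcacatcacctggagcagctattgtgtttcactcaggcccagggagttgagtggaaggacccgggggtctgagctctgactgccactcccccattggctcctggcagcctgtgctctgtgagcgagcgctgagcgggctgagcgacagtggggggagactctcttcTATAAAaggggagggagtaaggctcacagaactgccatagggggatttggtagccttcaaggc
Nts: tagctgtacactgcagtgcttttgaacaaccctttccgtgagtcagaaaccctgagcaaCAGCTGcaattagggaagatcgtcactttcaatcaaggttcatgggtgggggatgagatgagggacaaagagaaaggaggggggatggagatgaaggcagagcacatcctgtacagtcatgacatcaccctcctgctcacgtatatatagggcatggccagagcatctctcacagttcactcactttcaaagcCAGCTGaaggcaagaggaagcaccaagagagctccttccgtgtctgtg
Tmem212: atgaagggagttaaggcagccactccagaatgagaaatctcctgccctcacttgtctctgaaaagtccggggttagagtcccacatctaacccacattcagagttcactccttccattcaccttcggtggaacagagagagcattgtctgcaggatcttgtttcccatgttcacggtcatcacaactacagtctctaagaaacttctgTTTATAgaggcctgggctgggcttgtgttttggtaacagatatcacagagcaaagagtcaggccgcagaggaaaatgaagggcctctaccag
The Pdyn promoter held 1 TATAAA and that of Tmem212 held 1 on the opposite strand, the Nts promoter held 2 copies of CAGCTG, and that of C1ql2, 70.3% G and C, held none of the 5 motifs.

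Levels below are log2 values of the probe signal after background correction and quantile normalization, a difference is labelled CA3 minus labelled CA1 on that scale, and a probe counts as detected where its detection p-value was under 0.01. The value 0.01 itself, held by 29.84% of entries and by bright probes, was read as 0 and so as detected. Of 9923 probes detected on at least 7 of the 14 arrays, 6127 differed (61.7%; limma, adjusted p under 0.05), 3055 higher and 3072 lower in labelled CA3. With each array scaled to its median instead, the median difference over the tested probes shifted from -0.01 to 0.41. With that scaling 6168 probes were higher against 807 lower, so a direction below is relative to the bulk of the genes. Of 7204 genes with a tested probe, 4389 were called (60.9%), 2218 higher (30.8%) and 2171 lower (30.1%), and 470 of them differed by over 2-fold (6.52%), 253 higher (3.51%) and 217 lower (3.01%). The groups did not overlap for 2006 genes (27.8%). Of the genes over 2-fold, 52 higher ones were undetected on all arrays labelled CA1 and 13 lower ones on all labelled CA3. A gene undetected on every array of a region passed the filter only through the other region, so its direction was fixed by the filter. Array mean signal ran from 439.3 to 656.1 in labelled CA1 and from 682.2 to 853.4 in labelled CA3, without overlap, and the share of probes detected from 39.08% to 44.62% and from 43.71% to 46.36%. The part of this gap in the counts was not tested. Array 6 of labelled CA1 stood apart, with a median correlation of 0.977 with its own group and 0.964 with labelled CA3, and without it 6363 probes were called, 876 of them over 2-fold against 778 with all arrays.

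**Figure D1:**
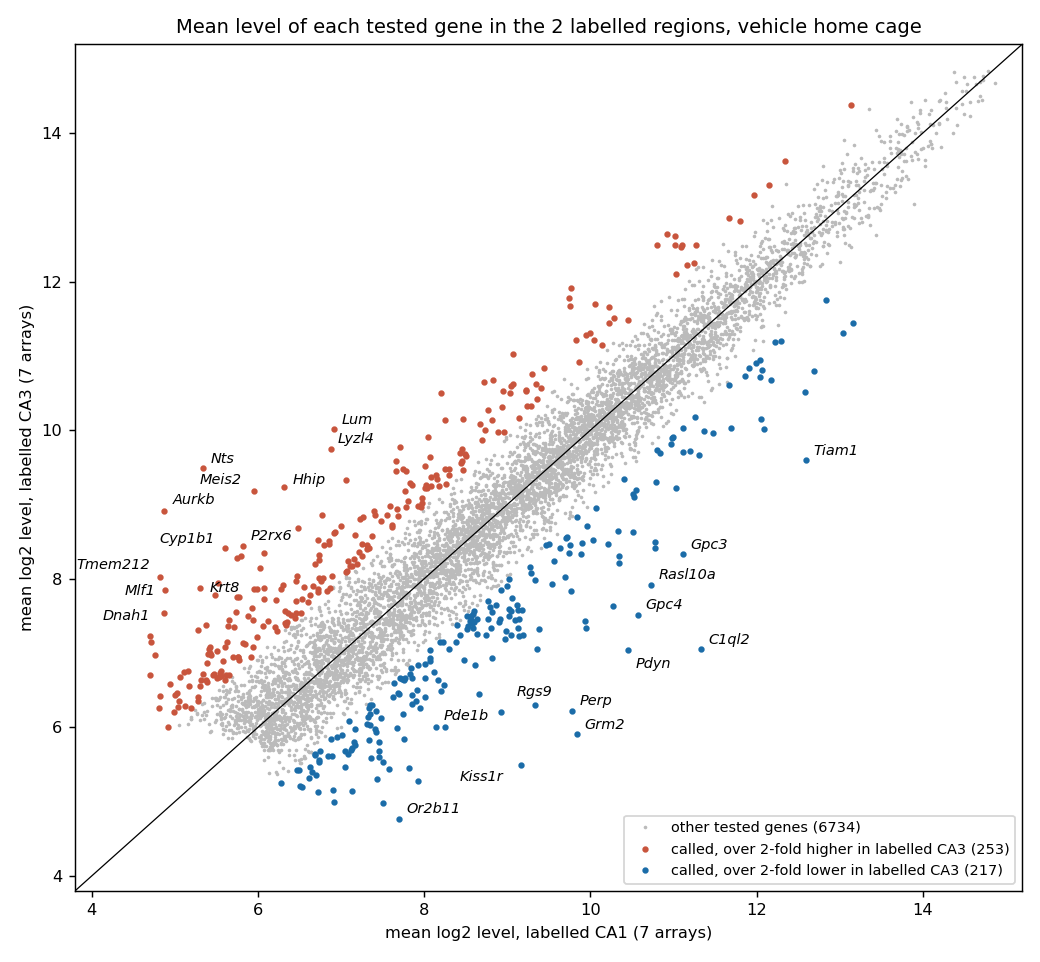
Each point is a tested gene, placed by its mean log2 level over the 7 arrays labelled CA1 (x axis) and the 7 labelled CA3 (y axis), and the line marks equal levels. The 253 genes over 2-fold higher in labelled CA3 are red, the 217 over 2-fold lower are blue, and the 24 largest differences are named.

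The labels were checked against markers of the cell classes, with the arrays labelled DG of the same rats as a further point. Prox1, the transcription factor that sets granule cell identity, was detected on 7 of 7 arrays labelled CA1, 0 of 7 labelled CA3 and 0 of 7 labelled DG. C1ql2, a secreted protein of mossy fibre synapses, ran from 11.05 to 11.64 (median 11.32) in labelled CA1, from 7.39 to 9.87 (median 9.11) in labelled DG and from 6.61 to 7.88 (median 6.90) in labelled CA3. Arrays labelled CA1 thus had the highest values of both granule cell genes, with no overlap with either other region. Prox1 passed the filter only through labelled CA1, so its direction against labelled CA3 was fixed by the filter. Its values in labelled CA3 and labelled DG are at background, whereas C1ql2 was detected on all arrays of each region.

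CA1 neuron genes followed another order. Wfs1, a protein of the endoplasmic reticulum membrane, ran from 5.83 to 7.61 (median 6.76) in labelled CA1, from 7.64 to 9.03 (median 8.46) in labelled CA3 and from 10.18 to 11.12 (median 10.82) in labelled DG. Ccn3, a secreted matrix-associated protein, had medians of 8.07, 10.10 and 12.26 in labelled CA1, CA3 and DG. The 3 ranges did not overlap for either gene, and labelled CA1 was lowest. Mpped1 and Fibcd1, both known from CA1 pyramidal neurons, were too dim to be tested here: they were detected on 0 of 7 arrays labelled CA1, on 1 and 0 of 7 labelled CA3, and on 7 of 7 labelled DG. Most CA3 neuron genes that were called stood with their label. Nectin3, an adhesion protein, ran from 8.26 to 8.87 in labelled CA3 (median 8.63), from 6.40 to 7.24 in labelled CA1 and from 5.54 to 6.49 in labelled DG, the CA3 values above all others. Spock1, Bok, Cpne4 and Rnf182 were also highest in labelled CA3 without overlap. For Cpne4 the gap was narrow (lowest 10.20 in labelled CA3, highest 10.19 in labelled CA1). Tyro3 was instead highest in labelled DG (10.54 to 10.65, against 9.98 to 10.42 in labelled CA3). Coch overlapped between labelled DG (6.35 to 7.16) and labelled CA3 (6.38 to 7.13). Other CA1 list members went the other way: Lypd1 was highest in labelled CA1 (6.50 to 7.12, against 5.44 to 6.24 in labelled CA3 and 5.67 to 6.19 in labelled DG), and so was Htr1a by its median (8.45, against 5.88 and 6.70), its range overlapping that of labelled DG. On the granule cell list, Sema5a was also highest in labelled CA1 without overlap, and Calb1 and Pdzd2 were by their medians. Pkp2 was instead lowest there (9.04 to 9.66, against 10.48 to 10.75 in labelled CA3 and 10.28 to 10.82 in labelled DG). Il1rapl2 was lowest there by its median (6.41, against 7.39 and 6.79). The arrays labelled CA1 therefore carried the granule cell markers Prox1 and C1ql2 and were lowest for Wfs1 and Ccn3. Not every member of the lists followed that order, and the deposited labels are kept here as names of the arrays.

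**Figure D2:**
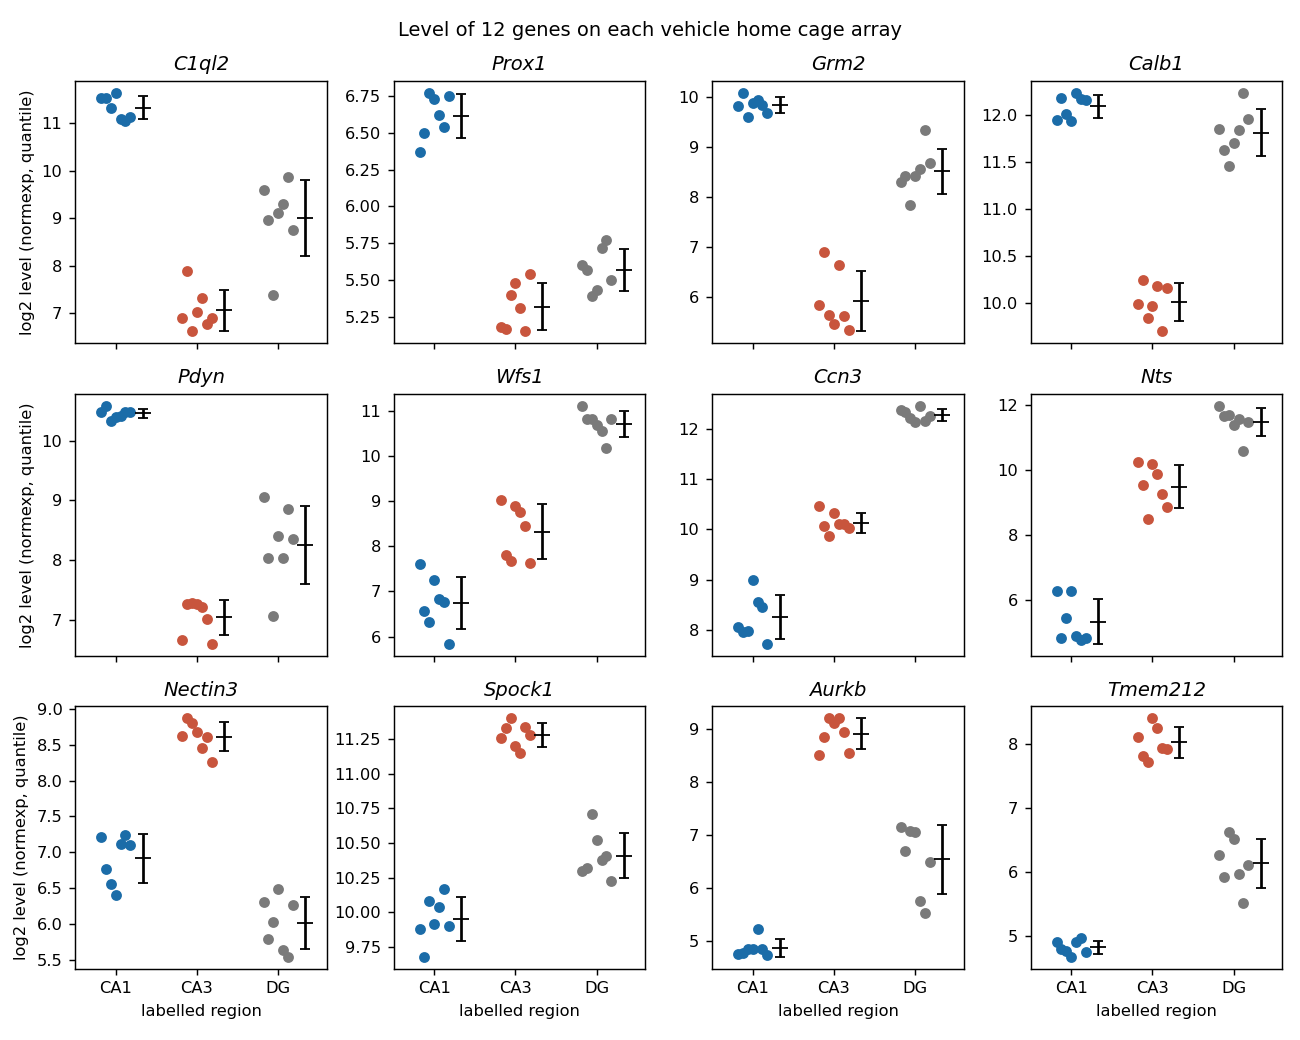
Points are the log2 levels of 12 genes on the 7 vehicle home cage arrays of each labelled region, and bars give the mean and SD; each panel has its own scale, which need not start at 0. C1ql2, Prox1 and Pdyn were highest in labelled CA1, Wfs1, Ccn3 and Nts in labelled DG, and Nectin3, Spock1, Aurkb and Tmem212 in labelled CA3. The ranges of Calb1 in labelled CA1 and labelled DG overlapped.

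Of 7 tested granule cell markers, 5 were lower (30.1% of all genes) and 2 higher (30.8%) in labelled CA3. Their median difference was -1.29, against 0.004 over all genes. C1ql2 had the largest fall of any tested gene detected on all 7 arrays labelled CA1: -4.27 ± 0.16 (SE, n = 7 and 7; limma adjusted p = 6.45e-13). Calb1, the calcium buffer calbindin, ran from 11.93 to 12.23 (median 12.16) in labelled CA1 and from 9.70 to 10.25 (median 9.99) in labelled CA3. These groups did not overlap, and the difference was -2.08 ± 0.08 (adjusted p = 1.08e-12). Unlike Prox1 and C1ql2, Calb1 in labelled DG (11.45 to 12.23, median 11.84) overlapped labelled CA1. Prox1 differed by -1.29 ± 0.10 in the fit (adjusted p = 5.47e-09). Since its probe was not detected on any array labelled CA3, its level there is only bounded, and Prox1 was at least 1.75-fold lower. For this and every later bound, the undetected group was set, per array, to the lowest signal among detected probes or to the probe's own signal where that was higher. Each gene with a bound passed the filter only through the group that detected it, so its direction was fixed by the filter. Sema5a, a semaphorin, was lower by 1.70 (a difference of -1.70 ± 0.11), and Pdzd2 by less (-0.44 ± 0.10). The 2 exceptions were higher in labelled CA3: Pkp2, the desmosomal protein plakophilin, by 1.28 ± 0.09 (adjusted p = 9.29e-10) and Il1rapl2, a synaptic adhesion protein, by 0.95 ± 0.11.

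Among CA3 neuron markers 7 of 9 tested were higher in labelled CA3 (30.8% of all genes) and none lower (30.1%), with a median of 0.70. Spock1, a proteoglycan of the extracellular matrix, ran from 9.68 to 10.17 (median 9.92) in labelled CA1 and from 11.15 to 11.40 (median 11.28) in labelled CA3, without overlap, a difference of 1.33 ± 0.07 (adjusted p = 3.21e-11). Nectin3 was higher by 1.70 ± 0.14 and Bok, a member of the Bcl-2 family, by 1.22 ± 0.08. Coch, the matrix protein cochlin, was detected on 7 of 7 arrays labelled CA3 and 0 of 7 labelled CA1, at least 1.51-fold higher. Tyro3 (0.70), Cpne4 (0.40) and Rnf182 (0.29) had smaller differences. In SAHA home cage, vehicle RPC and SAHA RPC rats, Cpne4 differed by 0.23, -0.14 and 0.15 and Rnf182 by 0.06, 0.09 and 0.12. Cpne4 was not called in the fit of 84 arrays (limma adjusted p = 0.0842). Homer3 (0.33, adjusted p = 0.0512) and St18 (0.12, adjusted p = 0.45) did not pass the test. Homer3 passed under 10 of the alternatives, among them the authors' z-scores (adjusted p = 0.024) and median scaling (0.000559). Grik4, whose kainate receptor subunit is known from CA3 pyramidal neurons, was detected on 1 of 7 arrays labelled CA3 and on none labelled CA1, and was not tested.

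All 5 tested CA1 neuron markers were called (60.9% of all genes), 3 higher (30.8%) and 2 lower (30.1%) in labelled CA3. Ccn3 was higher by 1.88 ± 0.16 (adjusted p = 1.83e-08), Wfs1 by 1.58 ± 0.27 and Dcn, the proteoglycan decorin, by 0.85 ± 0.18. Htr1a, the serotonin 1A receptor, ran from 6.68 to 8.96 (median 8.45) in labelled CA1 and from 5.55 to 6.55 (median 5.88) in labelled CA3, where 4 of 7 arrays detected it. Its groups did not overlap, and it was lower by 2.24 (a difference of -2.24 ± 0.29, adjusted p = 3.82e-06). Lypd1 was lower too (-0.92 ± 0.13).

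CA2 markers were split, 3 higher (30.8% of all genes) and 4 lower (30.1%) of 8 tested. Amigo2, an adhesion protein of CA2 and CA3 neurons, was higher in labelled CA3 by 1.54 ± 0.16, Sstr4 by 0.62 ± 0.07 and Vcan by 0.58 ± 0.12. Ntf3, the neurotrophin that granule cells also express, was lower (-1.95 ± 0.13, adjusted p = 6.51e-10), as were Rgs14 (-0.36), Pcp4 (-0.43) and S100b (-0.44), while Necab2 did not pass (0.06, adjusted p = 0.668). The split depended on the scaling: with median scaling 4 were higher and 1 lower (median 0.35 against -0.15), Necab2 was called at 0.61, and Rgs14, Pcp4 and S100b were at 0.10, 0.04 and 0.02, not called. Hilar mossy cell markers gave 1 higher (Tm4sf1, 0.28) and 2 lower (Nmb, -0.81, and Drd2, -0.41) of 6 tested, beside the same shares of all genes. Nmb and Drd2 were not called with median scaling.

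**Figure D3:**
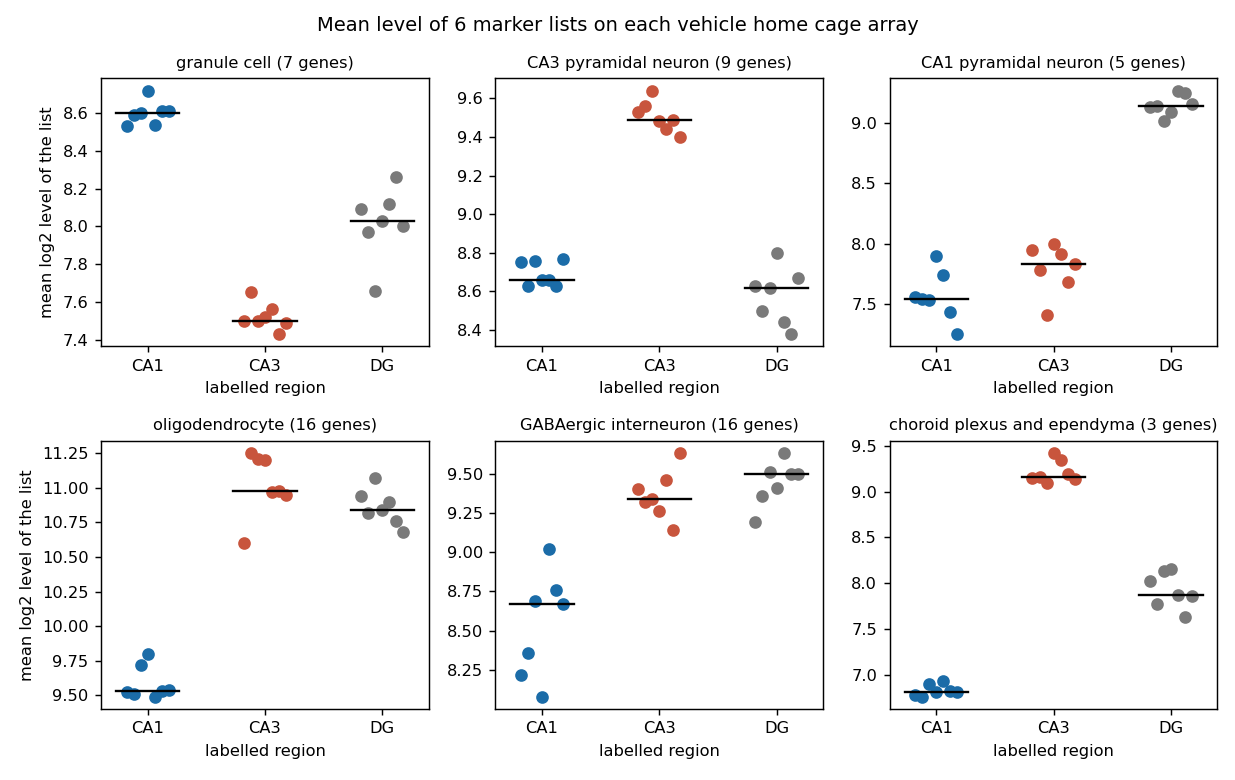
Points are the mean log2 level of 6 marker lists on each of the 7 vehicle home cage arrays of a labelled region, and lines are medians; the scales differ between panels and need not start at 0. The granule cell list was highest on every array labelled CA1 (8.53 to 8.72), the CA3 list on every array labelled CA3 (9.40 to 9.64) and the CA1 list on every array labelled DG (9.02 to 9.27).

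The 12 largest differences in each direction were taken from called genes detected on all 7 arrays of the higher group. The groups did not overlap for any of these 24 genes, which follows largely from choosing them for size. For comparison, that held for 27.8% of all genes, and for 97.6% of the higher and 78.3% of the lower genes over 2-fold. Nts, the precursor of the neuropeptide neurotensin, led the genes higher in labelled CA3: it ran from 4.78 to 6.29 (median 4.91) in labelled CA1, where 2 of 7 arrays detected it, and from 8.5 to 10.24 (median 9.53) in labelled CA3. The difference was 4.15 ± 0.30 (adjusted p = 3.28e-09). In labelled DG it was higher still (10.60 to 11.98, median 11.58), so labelled CA3 held the middle place. Lyzl4 had the same order, with medians of 6.62, 9.78 and 11.54 in labelled CA1, CA3 and DG (difference 2.88 ± 0.30). Meis2, a homeobox transcription factor, ran from 9.07 to 9.26 in labelled CA3 and from 9.25 to 9.45 in labelled DG, both far above labelled CA1 (5.40 to 6.38, detected on 2 of 7 arrays); its difference was 3.23 ± 0.14.

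A second set of these genes was highest in labelled CA3. Aurkb, the mitotic kinase Aurora B, was detected on 0 of 7 arrays labelled CA1 (4.74 to 5.22, median 4.86), on 7 of 7 labelled CA3 (8.51 to 9.21, median 8.95) and on 6 of 7 labelled DG (5.54 to 7.15, median 6.71). It was at least 6.94-fold higher in labelled CA3 than in labelled CA1 (4.05 ± 0.12 in the fit, adjusted p = 6.49e-14). Another 4 genes had the same pattern of detection in both regions (0 of 7 against 7 of 7). Like Aurkb, they passed the filter only through labelled CA3, so their direction was fixed by it. Tmem212 was at least 3.75-fold higher, Mlf1, which codes for a protein of cilia and the nucleus, at least 3.33-fold, Dnah1, a heavy chain of the dynein of motile cilia, at least 2.68-fold, and Krt8, a keratin of simple epithelia, at least 3.37-fold.

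Tmem212 ran from 4.67 to 4.96 (median 4.79) in labelled CA1 and from 7.73 to 8.41 (median 7.95) in labelled CA3, and labelled DG lay between (5.52 to 6.63). Lum, the matrix proteoglycan lumican, ran from 6.18 to 8.39 (median 6.65) in labelled CA1 and from 9.43 to 10.34 (median 10.17) in labelled CA3, a difference of 3.09 ± 0.26 (adjusted p = 1.67e-08). Hhip, which binds and restrains Hedgehog ligands, was higher by 2.92 ± 0.15, Cyp1b1, a cytochrome P450, by 2.81 ± 0.13, and P2rx6, a subunit of ATP-gated channels, by 2.62 ± 0.12. Cyp1b1 and P2rx6 were each detected on 1 of 7 arrays labelled CA1, so these differences are against a level at background. The lowest arrays labelled CA3 exceeded the highest labelled CA1 for all of them.

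After C1ql2, the genes lower in labelled CA3 were led by Grm2 and Kiss1r. Grm2, the presynaptic glutamate receptor mGlu2 of mossy fibres, ran from 9.61 to 10.09 (median 9.85) in labelled CA1 and from 5.32 to 6.89 (median 5.62) in labelled CA3, where 2 of 7 arrays detected it. The difference was -3.94 ± 0.20 (adjusted p = 4.16e-11), and labelled DG lay between (median 8.43). Kiss1r, the kisspeptin receptor, was detected on 7 of 7 arrays labelled CA1 (8.82 to 9.64) and on 0 of 7 labelled CA3 (5.07 to 5.67), at least 10.2-fold lower. Or2b11, an olfactory receptor gene, had the same detection and was at least 3.72-fold lower. Pdyn, the precursor of the dynorphins, ran from 10.33 to 10.59 (median 10.49) in labelled CA1 and from 6.59 to 7.28 (median 7.22) in labelled CA3, a difference of -3.42 ± 0.11 (adjusted p = 9.95e-14).

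Perp, a tetraspan protein of desmosomes, was lower by 3.55 (a difference of -3.55 ± 0.14). Both glypicans of the set, heparan sulphate proteoglycans of the cell surface, were lower: Gpc4 (-3.06 ± 0.10) and Gpc3 (-2.78 ± 0.09). Rgs9, which speeds the shut-off of G proteins, had a difference of -3.03 ± 0.13, Tiam1, an activator of the GTPase Rac, of -2.99 ± 0.10, Rasl10a, a Ras-like protein, of -2.81 ± 0.09, and Pde1b, a calmodulin-dependent phosphodiesterase, of -2.72 ± 0.24. For all 12 genes of this set the mean in labelled DG lay between the other means, against 9 of the 12 higher genes. Over all genes past 2-fold, that held for 173 of 217 lower and 196 of 253 higher ones; labelled DG was beyond labelled CA3 for 44 and beyond labelled CA1 for 13 of the higher genes.

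**Figure D4:**
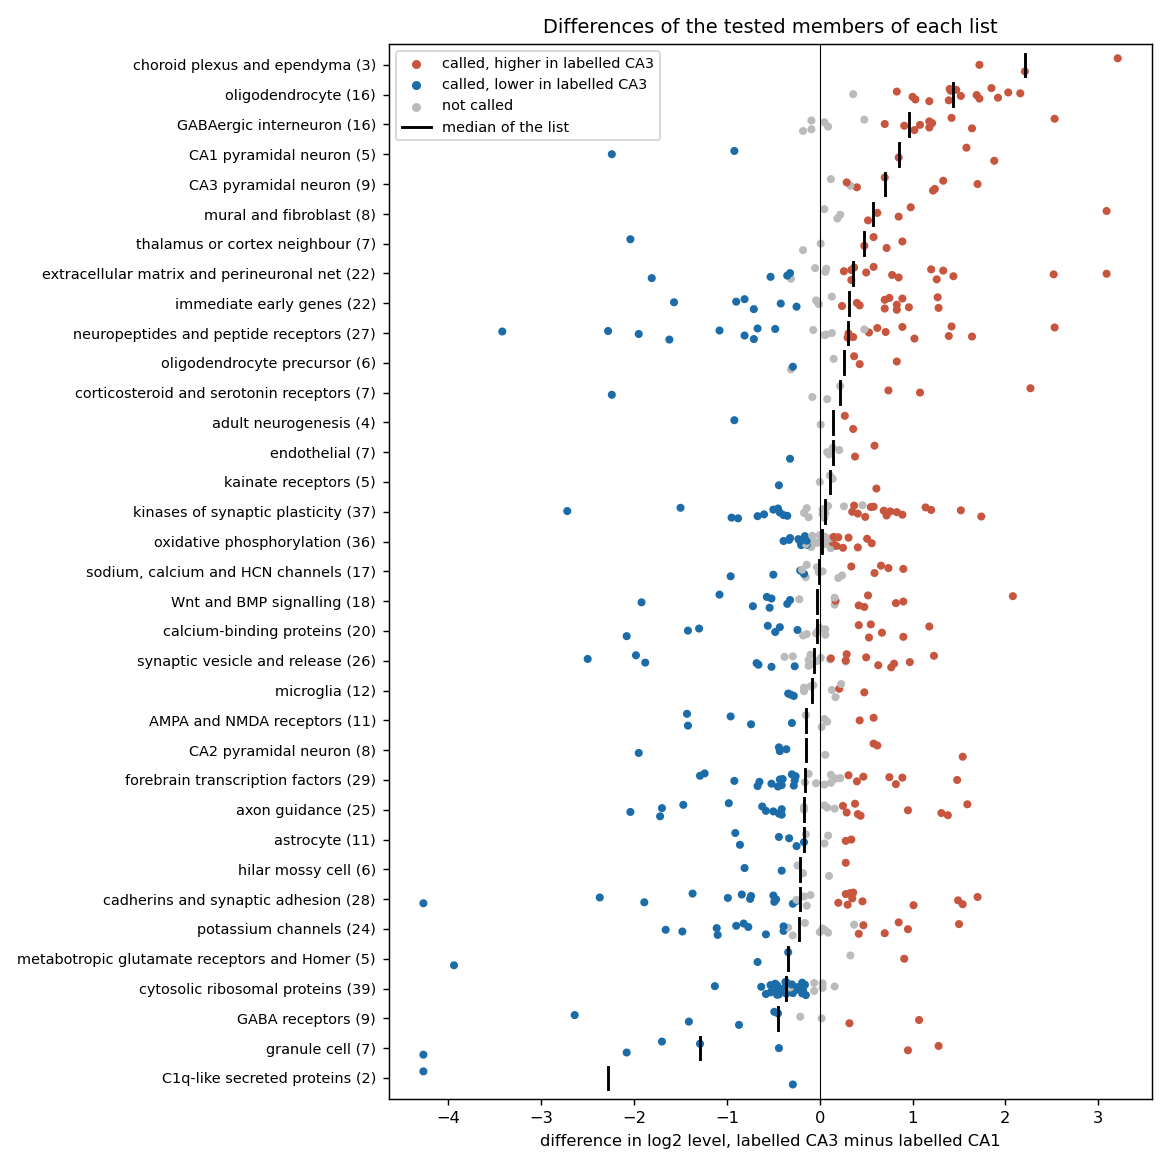
Each point is a tested gene of a list, placed by its difference in log2 level (labelled CA3 minus labelled CA1), with the number of tested members in brackets and the list's median as a black line. The oligodendrocyte list lies to the right of 0 and most of the ribosomal protein list to the left (up to 0.16), while most lists of synaptic genes spread to both sides.

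In the lists below, the share of members called is to be read against 60.9% of all genes, 30.8% higher and 30.1% lower. Of 5 metabotropic receptor and Homer genes, 1 was higher and 3 lower: besides Grm2, these were Grm7 (-0.67 ± 0.08) and Shank1 (-0.34 ± 0.10, not called with median scaling), and Homer2, a scaffold that binds group I receptors, was higher by 0.91 ± 0.11. AMPA and NMDA receptor genes gave 2 higher and 5 lower of 11 (median -0.15, or 0.30 with median scaling, with 6 higher and 4 lower), a share called near that of all genes. Olfm2 ran from 9.55 to 10.25 in labelled CA1 and from 8.33 to 8.74 in labelled CA3 (-1.43 ± 0.09), and Cacng3, an auxiliary subunit of AMPA receptors, differed by -1.42 ± 0.10, both without overlap. Grin2b, the NMDA receptor subunit GluN2B, was lower (-0.96 ± 0.18, overlapping groups), whereas Grin2a, which codes for GluN2A, was higher by 0.58 ± 0.14 and Gria3 by 0.43 ± 0.09. In SAHA home cage, vehicle RPC and SAHA RPC rats, Grin2a differed by 0.41, 0.02 and 0.42 and Gria3 by 0.21, -0.07 and 0.33.

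Kainate receptors, which act at mossy fibre synapses, had small differences. Grik1 was higher in labelled CA3 by 0.61 ± 0.14 (adjusted p = 0.00107) and Grik2 lower (-0.44 ± 0.11, adjusted p = 0.00166; 0 with median scaling), and the groups overlapped for both. Grik5 (0), Neto1 (0.14) and Neto2 (0.11) did not pass, with adjusted p of 0.981, 0.586 and 0.525 in limma; Grik5 was called with median scaling (0.56, adjusted p = 0.011). Of the C1q-like secreted proteins, which bridge kainate receptors and neurexins at synapses, C1ql1 was the other tested member: it was lower by 0.29 (a difference of -0.29 ± 0.12, adjusted p = 0.0427), a call lost under 13 of the alternatives, among them median scaling, where it was at 0.

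GABA receptor genes gave 2 higher and 5 lower of 9 (median -0.45), or 3 and 3 with median scaling (median -0.08). Gabrd, the delta subunit of extrasynaptic receptors, ran from 10.10 to 10.46 (median 10.27) in labelled CA1 and from 7.18 to 7.96 (median 7.57) in labelled CA3, a difference of -2.64 ± 0.11 (adjusted p = 1.66e-12). Gabra4, whose alpha 4 subunit assembles with delta, was lower (-1.41 ± 0.26), with overlapping groups and 2 of 7 arrays labelled CA3 detecting it. Gabra5 moved the other way: it ran from 10.86 to 11.35 in labelled CA1 and from 11.94 to 12.31 in labelled CA3, without overlap (1.07 ± 0.07). Of the GABA-B receptor genes, Gabbr1 was lower (-0.87 ± 0.19) and Gabbr2 higher by 0.32 ± 0.07 (0.13 on the authors' z-scores, not called).

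Among potassium channel genes 6 were higher and 10 lower of 24 (median -0.23, or 0.15 with median scaling). Kcnq5, a subunit of the M current, ran from 8.51 to 9.38 (median 8.65) in labelled CA1 and from 10.17 to 10.45 (median 10.25) in labelled CA3, a difference of 1.5 ± 0.11. Kcnh3, an ether-a-go-go type channel, was lower by 1.66 (-1.66 ± 0.10) and Kcng1, a modifying subunit, by 1.48 (-1.48 ± 0.10), both without overlap. A pair of channel-interacting proteins parted, Kcnip3 lower (-1.11 ± 0.17) and Kcnip1 at least 1.21-fold higher, with Kcnv1 higher by 0.85 ± 0.17. Of sodium, calcium and HCN channel genes, 5 were higher and 4 lower of 17 (median -0.01), or 11 and 1 with median scaling (median 0.36). The higher ones included the sodium channels Scn1a (0.90 ± 0.07), Scn2a (0.74 ± 0.12) and Scn4b (0.66 ± 0.08), and the lower ones the calcium channels Cacna1d (-0.96 ± 0.13) and Cacna1h (-0.50 ± 0.13).

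Calcium-binding proteins gave 6 higher and 7 lower of 20, or 10 and 3 with median scaling. Besides Calb1, Ncs1 (-1.42 ± 0.20) and Necab3 (-1.30 ± 0.11) were lower, and Pvalb, parvalbumin (1.18 ± 0.12), Cabp7 (0.90 ± 0.09) and Hpca, hippocalcin (0.67 ± 0.06), were higher. Neuropeptides and their receptors gave 12 higher and 9 lower of 27, or 18 and 5 with median scaling. Penk, the enkephalin precursor, ran from 10.03 to 11.11 (median 10.87) in labelled CA1 and from 8.11 to 8.95 (median 8.5) in labelled CA3 (-2.28 ± 0.15), so that these opioid precursors were both lower in labelled CA3. The 3 largest higher members were Tac1 (2.53 ± 0.24), Cort (1.64 ± 0.16) and Vip (1.42 ± 0.20), all known from interneurons; Tac1 and Cort were each detected on 1 of 7 arrays labelled CA1, so their level there is at background.

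Vesicle and release genes gave 9 higher and 7 lower of 26 (median -0.06), or 14 and 4 with median scaling (median 0.32). Synpr, synaptoporin of mossy fibre vesicles, ran from 8.95 to 10.33 (median 10.07) in labelled CA1 and from 7.00 to 8.27 (median 7.11) in labelled CA3, a difference of -2.50 ± 0.23 without overlap. Slc30a3, the vesicular zinc transporter, was lower by 1.88 (-1.88 ± 0.12), and Unc13c, a priming factor detected on 7 of 7 arrays labelled CA1 and 0 of 7 labelled CA3, was at least 3.25-fold lower. Higher in labelled CA3 were its paralogue Unc13b (1.23 ± 0.15, detected on 2 of 7 arrays labelled CA1), Snap25, a SNARE protein (0.97 ± 0.09), and Slc17a6, the vesicular glutamate transporter VGLUT2 (0.80 ± 0.20). Unc13b differed by 1.24, -0.03 and 0.24 in SAHA home cage, vehicle RPC and SAHA RPC rats.

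Adhesion genes gave 11 higher and 13 lower of 28 (median -0.21, or 0.13 with median scaling). Lrrtm4, a postsynaptic protein of dentate synapses, was lower by 2.37 (-2.37 ± 0.30); 1 array labelled CA1, number 6 at 6.10, fell within the range of labelled CA3. Cdh13, a cadherin anchored by GPI, ran from 10.40 to 10.73 in labelled CA1 and from 8.47 to 8.80 in labelled CA3 (-1.89 ± 0.07), and Cntn2, a contactin of axons, was higher by 1.49 ± 0.17. Guidance genes gave 9 higher and 11 lower of 25 (median -0.17, or 0.27 with median scaling). Ntng1, netrin G1 (-2.04 ± 0.11), and Efnb3, an ephrin (-1.72 ± 0.14), were lower, and Unc5b, a netrin receptor (1.59 ± 0.13), and the Eph receptors Epha5 (1.38 ± 0.12) and Ephb6 (1.31 ± 0.16) were higher.

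Of Wnt and BMP pathway genes 7 were higher and 8 lower of 18, or 9 and 4 with median scaling. Sfrp2, a secreted Wnt antagonist, ran from 6.18 to 7.09 (median 6.78) in labelled CA1 and from 8.43 to 9.18 (median 8.93) in labelled CA3 (2.08 ± 0.14), and Fzd1 (0.90 ± 0.13) and Dkk3 (0.82 ± 0.13) were higher too. Fst, follistatin, which binds activins, was not detected on any array labelled CA3 and was at least 2.16-fold lower, with Wnt4 (-1.08 ± 0.08) and Bmp6 (-0.72 ± 0.10) also lower. Transcription factors gave 7 higher and 14 lower of 29 (median -0.16, or 0.26 with median scaling). Neurod6, of pyramidal neurons, ran from 10.69 to 11.46 in labelled CA1 and from 12.32 to 12.64 in labelled CA3 (1.48 ± 0.10), whereas Neurod1, of young granule cells, was lower (-0.92 ± 0.06), as was Zfpm2 (-1.24 ± 0.09). Nr4a2 (0.89 ± 0.08) and Foxp1 (0.82 ± 0.10) were higher.

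Immediate early genes, which neurons induce after activity, gave 12 higher and 6 lower of 22 (median 0.32). Dusp5, an ERK phosphatase not detected on any array labelled CA1, was at least 2-fold higher in labelled CA3. Sgk1, a kinase also induced by corticosteroids, ran from 12.22 to 12.58 in labelled CA1 and from 13.43 to 13.99 in labelled CA3 (1.27 ± 0.07), and Dusp6 was higher by 0.96 ± 0.09. Ier5 (-1.57 ± 0.23), Jun (-0.90 ± 0.06) and Nptx2 (-0.81 ± 0.08) were lower. These rats had been injected but had not swum. Kinases and phosphodiesterases of plasticity gave 15 higher and 11 lower of 37, or 24 and 4 with median scaling. Camk1g (1.74 ± 0.09), Pde4b (1.52 ± 0.09) and Pde4d (at least 1.53-fold) were higher, and Prkar2b (-1.5 ± 0.09) and Adcy8 (-0.95 ± 0.11) were lower.

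Serotonin and corticosteroid receptor genes gave 3 higher and 1 lower of 7. Htr7, a receptor coupled to adenylyl cyclase, ran from 6.29 to 7.95 (median 6.95) in labelled CA1 and from 9.00 to 9.54 (median 9.37) in labelled CA3, a difference of 2.27 ± 0.20 without overlap, opposite to Htr1a. Htr3a (1.08 ± 0.21) and Htr5b (0.74 ± 0.19) were higher with overlapping groups. Matrix genes gave 14 higher and 4 lower of 22 (median 0.36). Besides Lum, Hs3st2, a heparan sulphate sulphotransferase (2.52 ± 0.15, detected on 2 of 7 arrays labelled CA1), and Hapln2, a link protein of nodes on myelinated axons (1.44 ± 0.10), were higher, and Col6a1 (-1.81 ± 0.19), Hapln1 (-0.53 ± 0.19) and Hapln4 (-0.35 ± 0.10) were lower; neither Hapln1 nor Hapln4 was called with median scaling, where Hapln4 was at 0.02.

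Markers of other cell types differed as well. Oligodendrocyte genes, which make myelin, were higher in labelled CA3 for 15 of 16 tested genes and lower for none, with a median of 1.44 and 13 of them over 2-fold (3.51% of all genes). Mobp ran from 9.54 to 10.07 (median 9.71) in labelled CA1 and from 11.67 to 12.18 (median 11.96) in labelled CA3, a difference of 2.16 ± 0.09 (adjusted p = 3.63e-12), and Mog (2.03 ± 0.08) and Ermn (1.92 ± 0.10) followed. The mean level of the list ran from 9.49 to 9.80 in labelled CA1, from 10.60 to 11.25 in labelled CA3 and from 10.68 to 11.07 in labelled DG. The arrays labelled CA1 thus lay below both other regions, and the part of myelin in the other gene groups was not tested.

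Of the ependyma and choroid plexus genes 3 were tested. Tmem212 and Dynlrb2, a dynein light chain, were detected on 0 of 7 against 7 of 7 arrays, at least 3.75-fold and 1.8-fold higher; they passed the filter only through labelled CA3, so their direction was fixed by it. The other was Enpp2, autotaxin (1.72 ± 0.07), which the oligodendrocyte list holds too. Ttr, the defining gene of choroid plexus, reached detection on only 1 array of labelled CA1 and 4 of labelled CA3 and was not tested, and Folr1, Kl, Clic6, Kcne2, Prlr and Aqp1 were not detected in any region. Interneuron genes were higher for 10 of 16 (30.8% of all genes) and lower for none (median 0.96), with Pvalb, Tac1, Cort and Vip as given above. Fibroblast and mural genes were higher for 5 of 8 and lower for none (median 0.57), Tagln by 0.98 ± 0.20 besides Lum and Dcn. In the interneuron, fibroblast and mural, and oligodendrocyte lists, the mean level of the list on every array labelled CA3 exceeded that on every array labelled CA1.

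Astrocyte genes gave 2 higher and 6 lower of 11 (median -0.17, or 0.26 with median scaling). Slc4a4, a bicarbonate transporter, was lower (-0.91 ± 0.12), as was Aqp4, the water channel of end feet (-0.86 ± 0.34, adjusted p = 0.0355, with overlapping groups and the call lost under 12 of the alternatives), while the connexins Gjb6 (0.34 ± 0.06) and Gja1 (0.28 ± 0.05; -0.09 on the authors' z-scores) were higher. Microglia genes gave 2 higher (Ctss, 0.48, and Laptm5, 0.21) and 3 lower of 12, the 3 being the complement genes C1qa (-0.28), C1qb (-0.31) and C1qc (-0.34), which were at 0.26, 0.25 and 0.14 with median scaling. Endothelial genes gave 2 higher (Vwf, 0.59, and Egfl7, 0.38) and 1 lower of 7, Cldn5 (-0.32; 0.24 with median scaling). Genes of adult neurogenesis gave 2 higher (Fxyd7, 0.36, lost under 8 of the alternatives, and Tubb3, 0.27) and 1 lower of 4, Neurod1. Of genes known from thalamus or cortex next to the hippocampus, 4 were higher and 1 lower of 7.

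Cytosolic ribosomal protein genes were lower in labelled CA3 for 33 of 39 tested genes and higher for none (lower, 30.1% of all genes), with a median of -0.36. Under median scaling the direction turned, with a list median of 0.13 and 10 higher against 1 lower. The median difference over all tested probes was 0.41 under that scaling. Rps2 ran from 11.56 to 12.13 in labelled CA1 and from 10.41 to 10.92 in labelled CA3 (-1.13 ± 0.10), and was the only member over 2-fold; Rps15 (-0.63 ± 0.06) and Rpl15 (-0.58 ± 0.06) were not called with median scaling. Oxidative phosphorylation genes gave 9 higher and 9 lower of 36 (median 0.02), a balance that turned with the scale, to 32 higher and none lower with median scaling and to 4 higher and 24 lower on the authors' z-scores; none differed by over 2-fold. Cycs, cytochrome c (0.56 ± 0.05), Ndufs1 (0.51 ± 0.06) and Atp5f1c (0.41 ± 0.05) were higher, and Ndufb2 (-0.39 ± 0.06), Ndufb8 (-0.33 ± 0.06) and Ndufs7 (-0.32 ± 0.06), all of complex I, were lower, these 3 at 0.08, 0.18 and 0.22 with median scaling.

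The same regional difference was read in the other 3 groups of rats, in a fit of the 56 arrays labelled CA1 or CA3. These are other rats, so the differences share no array. Their calls do share a spread, which the fit took for each probe from all 56 arrays, those of vehicle home cage rats included. Of the 470 genes over 2-fold in vehicle home cage rats, all 470 had the same direction in SAHA home cage rats, 467 in vehicle RPC rats and 470 in SAHA RPC rats, and 465, 459 and 461 were also called with that direction; none was called with the opposite one. Over all probes in that fit, 49.4% were called in vehicle home cage rats and 51.9%, 67.7% and 58% in these 3 groups; of all genes, 6.48% passed 2-fold in vehicle home cage rats and 7.91%, 14.9% and 9.76% in the others. The median size of the difference over these genes was 1.33 in vehicle home cage rats, against 1.38, 1.53 and 1.5 in the other groups. Since the genes were chosen for size in the first group, their sizes there are a description. All 24 of the largest differences were called with the same direction in each of the other groups: C1ql2 differed by -4.35, -3.73 and -4.16 in SAHA home cage, vehicle RPC and SAHA RPC rats, and Aurkb by 3.62, 4.16 and 4.16. Among the 470 genes, Unc13b had the opposite sign in vehicle RPC rats (-0.03, against 1.23 in vehicle home cage rats).

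**Figure D5:**
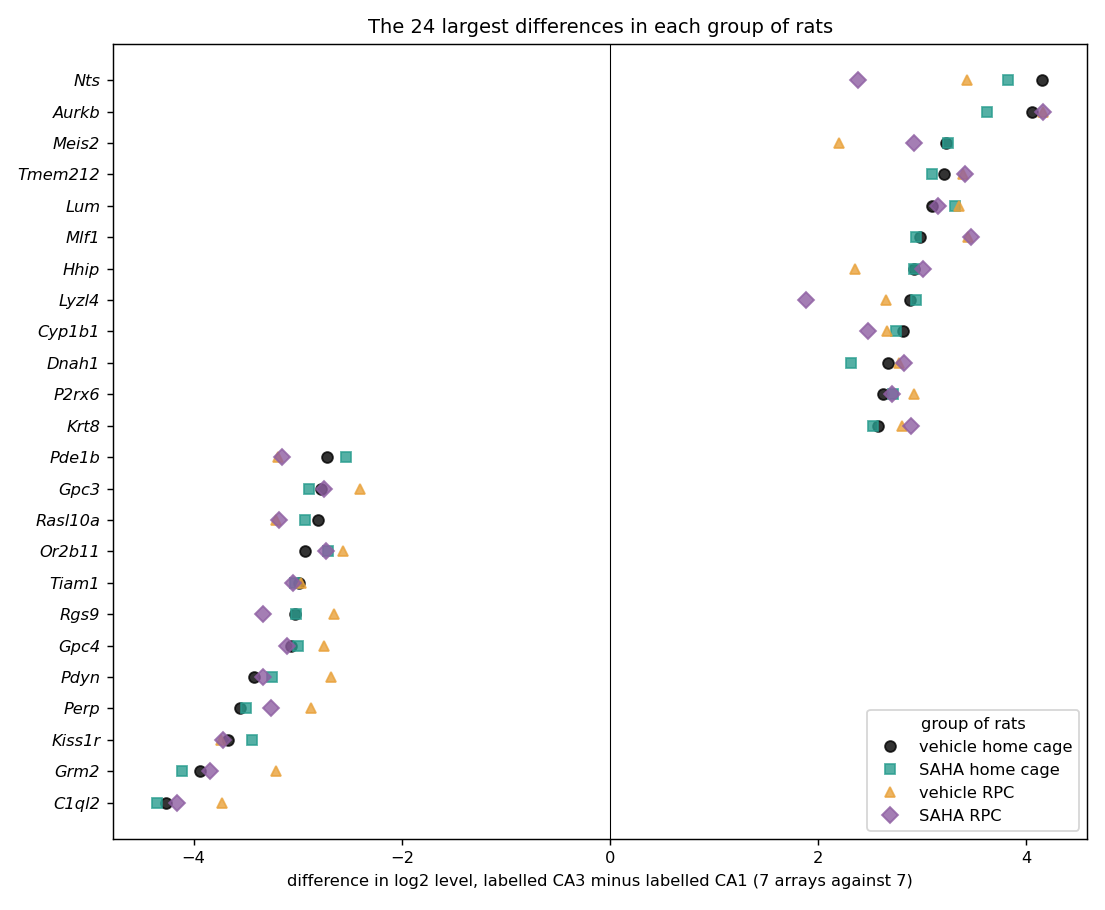
The x axis gives the difference in log2 level, labelled CA3 minus labelled CA1, of the 24 largest differences, and symbols mark the 4 groups of rats (7 arrays against 7 in each). All points of a gene lie on the same side of 0, and Nts, the widest spread among the 12 higher genes, ran from 4.15 in vehicle home cage to 2.38 in SAHA RPC rats.

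Whether the regional difference varied among the 4 groups of rats was tested by an F test of region by group. It called 195 of 9923 probes (1.97%) and 2.01% of genes. Against vehicle home cage rats alone, the contrast called 390 probes in vehicle RPC rats, none in SAHA home cage rats (1.16% of probes at an unadjusted p under 0.05) and none in SAHA RPC rats (5.57% unadjusted) in limma; with array weights the last count was 24, and no other tool was run. The 5 smallest p-values belonged to Cwc15, Rilpl1, Tmem9, Dpcd and Tpt1. Cwc15, a spliceosome protein, differed by 0.23 in vehicle home cage, 0.19 in SAHA home cage, 0.69 in vehicle RPC and 0.48 in SAHA RPC rats (F test adjusted p = 0.00375). Tmem9 differed by -0.19, -0.22, 0.40 and 0.18 (adjusted p = 0.00498), a change of direction between home cage and RPC rats; with median scaling the difference in vehicle home cage rats was 0.38. These counts rested on single arrays: without vehicle RPC labelled CA3 replicate 3 or 4 the F test called 54 or 58 probes, and without replicate 1, 2 or 5 it called 701, 508 or 599. Array 6 of that group stood apart (35.35% of probes detected, median correlation 0.829 with its group), and 244 probes were called without it.

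Of the 7204 tested genes, 6004 had a RefSeq promoter (GRCr8) matched by Entrez number, among them 189 of the genes over 2-fold higher and 168 of those over 2-fold lower in labelled CA3. TATAAA, as in the Pdyn and Tmem212 promoters shown above, lay in 14.3% of the higher and 10.7% of the lower genes' windows, against 6.7% of all 6004. CAGATG lay in 17.5%, 9.5% and 10.5% of them, CAGCTG in 19%, 16.1% and 16.1%, CACGTG in 3.2%, 7.7% and 9.8%, and TGACGTCA in 3.2%, 2.4% and 3.5%. Median GC content was 60.7%, 65.5% and 61%. These shares describe letters in a window, were not tested, and show no binding.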

How the data were processed

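Rat hippocampal subfields were dissected fresh, and 0.5 µg of RNA per sample was carried through amplification and biotin labelling for Illumina bead arrays, per the labels' protocols. GenomeStudio 2011.1 is named in the submitters' processing notes. Bead summary and slide layout were not used here. The deposited signal is an intensity, in whole numbers on a linear scale, and its values show no normalization. Detection p-values, 1 per probe and array per the file headers, were deposited beside it; the value 0.01 stood for 0 there and was read as detected. The authors' other deposited file holds a score, the log10 signal centred and scaled within each array (a z-score), and served as an alternative.

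Background was removed by normexp (limma 3.58.1 in R 4.3.3 with the package data.table, version 1.17.8; offset 16; control levels inferred from the detection p-values), and log2 values were quantile normalized over 84 arrays, which takes out any shift shared by most probes. The offset shrinks differences of dim probes. Probes detected at p under 0.01 on at least 7 of the 14 arrays were tested with limma (lmFit, eBayes with trend, no covariates). Calls were made at 0.05 after Benjamini-Hochberg adjustment over all tested probes, and a stricter rule added a log2 difference over 1. The fit for the other rats took 56 arrays in 8 groups. A gene was read from its brightest tested probe; for 116 genes with several, the probes shared a sign in 84 and were called in opposite directions in 8. The number of arrays limits the precision. Each rat gave 1 array per region, and p-values measure the spread between arrays. The fit was tested on simulated data. Figures and promoters used Python 3.11.15, pandas 2.3.3 and matplotlib 3.10.9.

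The members and gene lists were chosen with earlier results of these data known. The genes named are the 12 largest called differences in each direction among genes detected on all 7 arrays of the higher group, up to 3 called members of each list per direction, members of the region, kainate receptor and C1q-like lists, and those with the 5 smallest F test p-values. Alternatives were the z-scores, no background correction, median scaling, normalization over the 14 arrays, no filter or a strict one (detected on every array of the fit), array weights, fixed and random replicate blocks, 1 fit of 84 arrays, the mean of a gene's probes, and leaving out each array. Leaving out each vehicle RPC array labelled CA3 was chosen after seeing the data.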

Additional observations from a re-analysis of the deposited data

Results flagged for a closer look

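Single arrays lay apart from the other 6 of their group for 27 of 344 group and gene combinations checked (7.8%), by the gap to the nearest array as a share of the group's range (Dixon's 95% limit), where chance gives about 1 in 20. Array 6 of labelled CA1 accounted for 12 of them, at log2 levels of 9.88 for Tyro3, 9.63 for Cpne4, 8.08 for Pde1b, 6.68 for Neto1, 10.09 for Cacng3, 8.04 for Grin2b, 7.14 for Kcnip3, 8.18 for Ncs1, 8.95 for Synpr, 6.10 for Lrrtm4, 5.76 for Hapln1 and 7.12 for Aqp4. Tyro3 was the only one of these 12 in which it was the highest of its group. Array 1 of labelled CA1 was high for Unc13c (8.01), Snap25 (13.91) and Jun (10.40) and low for Drd2 (7.41). Among the other arrays labelled CA1, Nptx2 was high on array 2 (9.72), Lyzl4 on array 4 (8.49) and Aurkb on array 5 (5.22). Among arrays labelled CA3, array 3 was low for Necab2 (9.90) and high for Sgk1 (13.99) and Ndufs1 (12.22), array 1 was high for Grin2a (9.61) and Neurod1 (10.05), array 2 was low for Ephb6 (8.55) and high for Fst (5.15), and array 4 was low for Pde4b (8.65).

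The regional difference varied among the 4 groups of rats for 9 of the named genes, by the F test of region by group in limma. Of these, 5 were named because their F test p was smallest; the other 4 are 2.4% of the remaining named genes, near the 2.01% of all genes. The adjusted p was 0.00375 for Cwc15 and for Rilpl1, 0.00498 for Tmem9, 0.00603 for Dpcd and 0.00701 for Tpt1. It was 0.0137 for Pcp4, which differed by -0.43 in vehicle home cage and 0.06 in vehicle RPC rats. It was 0.0318 for Pkp2 (1.28 and 1.83), for Grik2 (-0.44 and 0) and for Cdh13 (-1.89 and -1.25). These calls carry the dependence on single vehicle RPC arrays given with the counts above.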

How the results depend on the processing

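The count of called probes stayed within 1.5 times of 6127 under every alternative run, from 5093 with the strict filter to 7853 with no filter (22523 probes tested), and between 5770 and 6363 without 1 array. A like count did not mean the same calls. Of the 6127 probes, 4334 were also called with median scaling, 472 of them in the opposite direction. On the z-scores 5393 were, 28 of them in the opposite direction. The count over 2-fold, 778, was 458 on the authors' z-scores (a different scale), 451 without background correction, 1268 with median scaling and 469 with the strict filter, which tests fewer probes (8204); without 1 array it ran from 736 to 876. The interaction count, 195, was 108 on z-scores, 5 with median scaling, 63 with no filter and 1819 with array weights, and from 54 to 701 without 1 vehicle RPC array labelled CA3. The cause was not tested.

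Replicate numbers were not shown to pair the arrays: deviations of same-numbered arrays correlated between -0.29 and 0.48 (mean 0.14, against -0.03 for other pairs), over 0.1 in 5 of 7 pairs, and 0 arrays correlated best with their own number. With the number as a replicate block, 6159 probes were called, 778 of them over 2-fold; as a random block, 6286.

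Of 172 named genes, 19 changed sign under an alternative (some print as 0 after rounding). On z-scores Gja1 was at -0.09 and Tpt1 at -0.33. With median scaling C1ql1 was at 0, Rgs14 at 0.10, Pcp4 at 0.04, S100b and Hapln4 at 0.02, Ndufb2 at 0.08, Ndufb8 at 0.18, Ndufs7 at 0.22, C1qc at 0.14, C1qb at 0.25, C1qa at 0.26, Cldn5 at 0.24 and Tmem9 at 0.38. With array weights Necab2 was at 0 and Neto1 at -0.04. Without 1 array Grik5 ran from -0.06 to 0.10, Neto1 from 0 to 0.30, Neto2 from 0 to 0.19 and Necab2 from -0.01 to 0.14; none of these 4 was called in the main setting, though median scaling called Necab2 (0.61) and Grik5 (0.56). Calls were lost or gained for 30 genes, most often C1ql1 (13 alternatives), Aqp4 (12), Homer3 (10), Fxyd7 (8), and Hapln1 and Egfl7 (4 each). Dim probes limit what was seen: a probe undetected in a region has only a bound there.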
